A study of Mus musculus with 12 samples.

Results

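The Hox clusters A to D were followed through the 8 deposited ChIP-seq peak lists of a pair of mouse melanoma cell lines, 38 Hox genes out of 21887 protein-coding genes. Chromatin immunoprecipitation with sequencing (ChIP-seq) maps where a modified histone sits, and each list holds the regions that the authors' peak caller accepted. The lines were 493, labelled Kmt2d mutant, and 971, labelled Kmt2d WT, both grown in culture medium with serum; the series set out to examine what loss of KMT2D does to melanoma chromatin. Each line had 1 library for each of 4 marks, H3K4me1, H3K4me3, H3K27ac and H3K27me3, and 4 input libraries were not analysed here. Nothing used here gives the mutant allele, the animals behind the lines, the number of clones or how deeply the libraries were sequenced, and peak lists carry no bases in which the genotype could be checked. With 1 library per line and mark no difference has a replicate check and no p-value was computed, so line and genotype cannot be told apart.

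Members were the 10 genes of cluster A, the 10 of cluster B, the 9 of cluster C and the 9 of cluster D that are followed here. A peak counted as belonging to them when it lay within 10 kb of either end of a member's gene model (mm10). These windows merged into 5 stretches of 510.328 kb in all, and a peak shared by neighbouring genes was counted once. Cluster A spanned chr6:52152417-52270880, cluster B chr11:96184316-96378254 in 2 stretches because Hoxb13 stands apart, cluster C chr15:102911131-103046856 and cluster D chr2:74658225-74775142.

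Hox genes encode homeodomain transcription factors that give cells their position along the body axis, and their order on the chromosome follows the order in which they act from head to tail. Genes of the same number in different clusters are paralogues. In cells where a Hox gene is silent, Polycomb repressive complex 2 covers it with H3K27me3, while H3K4me3 marks active or poised promoters. A promoter that carries both marks is called bivalent. H3K4me1 and H3K27ac mark enhancers, and H3K27ac also marks active promoters. KMT2D is an H3K4 methyltransferase known mainly for enhancer monomethylation, whereas H3K4me3 at Hox genes is best known as the work of its relative KMT2A.

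The peak lists differed in length between the lines. The mutant line had 17987 H3K4me3, 18751 H3K27ac and 3649 H3K4me1 peaks, and the WT line had 23154 H3K4me3, 26415 H3K27ac and 17373 H3K4me1 peaks. The median H3K4me3 peak score, a number that the caller raises with confidence, was 1217 in the mutant list and 638.6 in the WT list. The WT H3K27me3 list held 25394 peaks, whereas the 1300 regions of the mutant H3K27me3 list were called, by the name of that list, against the WT H3K27me3 library. The mutant list therefore shows regions higher in the mutant line and is silent on H3K27me3 that both lines share or that the mutant line lost. Of 10 melanocyte markers, H3K4me3 lay within 1 kb of a gene end for 5 in the mutant line and 3 in the WT line. Mitf, Pax3 and Pmel had it in both lines, Sox10 and Mlana in the mutant line alone, and Dct, Tyrp1, Tyr, Ednrb and Kit in neither. The same count was 3 and 4 of 6 fibroblast markers in the mutant and WT lines, 1 and 1 of 4 endothelial markers, 0 and 0 of 5 immune markers and 2 and 0 of 5 keratinocyte markers. The keratinocyte pair was Dsp and Perp, while Krt5, Krt14 and Trp63 had none in either line.

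H3K27me3 of the WT line covered most of all the Hox clusters. It covered 85.7% of the cluster A windows, 82.4% of cluster B, 82.3% of cluster C and 72.8% of cluster D, 413.057 kb in all and 80.9% of the windows together. Of the 38 members, 36 had at least 50% of their own window covered, against 0.53% of all protein-coding genes (116 genes, so 36 of these 116 were Hox genes). The exceptions were Hoxb1, a hindbrain segment gene at the edge of its cluster, with 48.8%, and Hoxd1, at the corresponding edge of cluster D, with 32.6%. Their gene bodies were nevertheless covered over 100% (Hoxb1) and 72.8% (Hoxd1) of their length, so the uncovered part of Hoxb1's window lay outside the gene. Among members the median window coverage was 85.4%, against 0% over all protein-coding genes, and even Hoxd1 stood at percentile 98.9 of all genes.

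**Figure D1:**
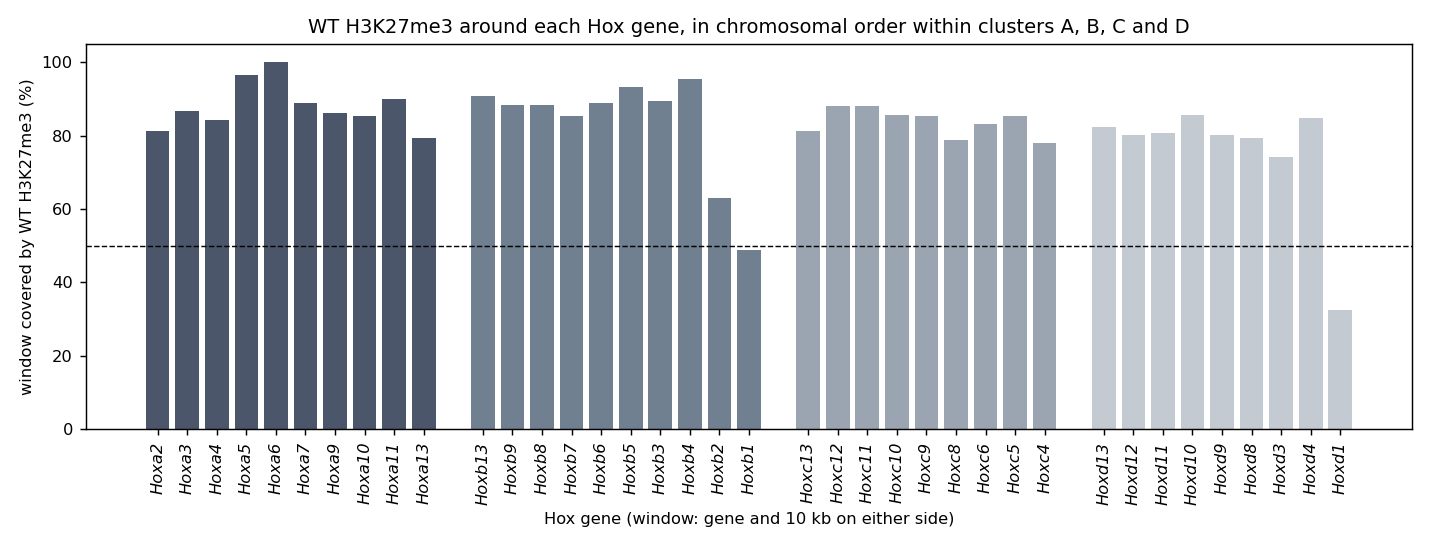
Percent of each Hox gene's window (the gene and 10 kb on either side) covered by WT H3K27me3 peaks, 1 bar per gene in chromosomal order within clusters A, B, C and D, from 1 library. The dashed line marks 50%, and only Hoxb1 (48.8%) and Hoxd1 (32.6%) fall under it.

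The H3K27me3 peaks of the clusters stood out in width more than in enrichment. The 131 Hox peaks had a median width of 2.305 kb, against 0.4555 kb over the whole list, and 25 of them (19.08%) were at least 5 kb wide, against 264 of 25394 (1.04%). They made up 0.5159% of the peaks and 2.187% of the 18.89 Mb that the list covers. Their median fold enrichment, the authors' own value per peak, was 4.882 with a range of 3.555 to 6.275, against a list median of 4.27 and a list maximum of 7.664. The median −log10 p was 8.053 in the Hox windows and 6.295 over the list. The widest peak of the entire WT H3K27me3 list lay in cluster A, chr6:52193611-52218974, a run of 25.364 kb that covers Hoxa5, Hoxa6 and Hoxa7 whole. Hoxa6, which patterns the trunk skeleton, was the one member whose window was covered over its full 100%. The widest peak of cluster B was chr11:96311454-96328470, 17.017 kb over Hoxb4 and part of Hoxb3, that of cluster D was chr2:74690899-74701572, 10.674 kb with Hoxd9 inside it, and that of cluster C was chr15:102915737-102924156, 8.42 kb at Hoxc13.

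When H3K27me3 peaks separated by no more than 5 kb were chained, each cluster became a single block. The block of cluster A was 137.589 kb long, that of cluster B (without Hoxb13) 126.947 kb, that of cluster C 184.523 kb and that of cluster D 122.204 kb. The block of cluster C ran on for 52.751 kb past Hoxc4. Its longest break, 4.908 kb, lay beyond its outermost members and just under the 5 kb limit, so the length of this block depends on that limit. The block of cluster D took in Evx2, a homeobox gene beside Hoxd13. Between the outermost members of each block there were 94 breaks in the peak coverage, and 19 were 1 kb or longer. The median break was 0.4475 kb. In cluster B the count ran from Hoxb9 to Hoxb1, so the stretch between Hoxb13 and Hoxb9 was left out. The longest of the 94, 3.94 kb at chr2:74754195-74758134, lay between Hoxd3 and Hoxd1, and the next, 3.318 kb at chr11:96357768-96361085, between Hoxb2 and Hoxb1. Both of these breaks held no H3K4me3 of either line.

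**Figure D2:**
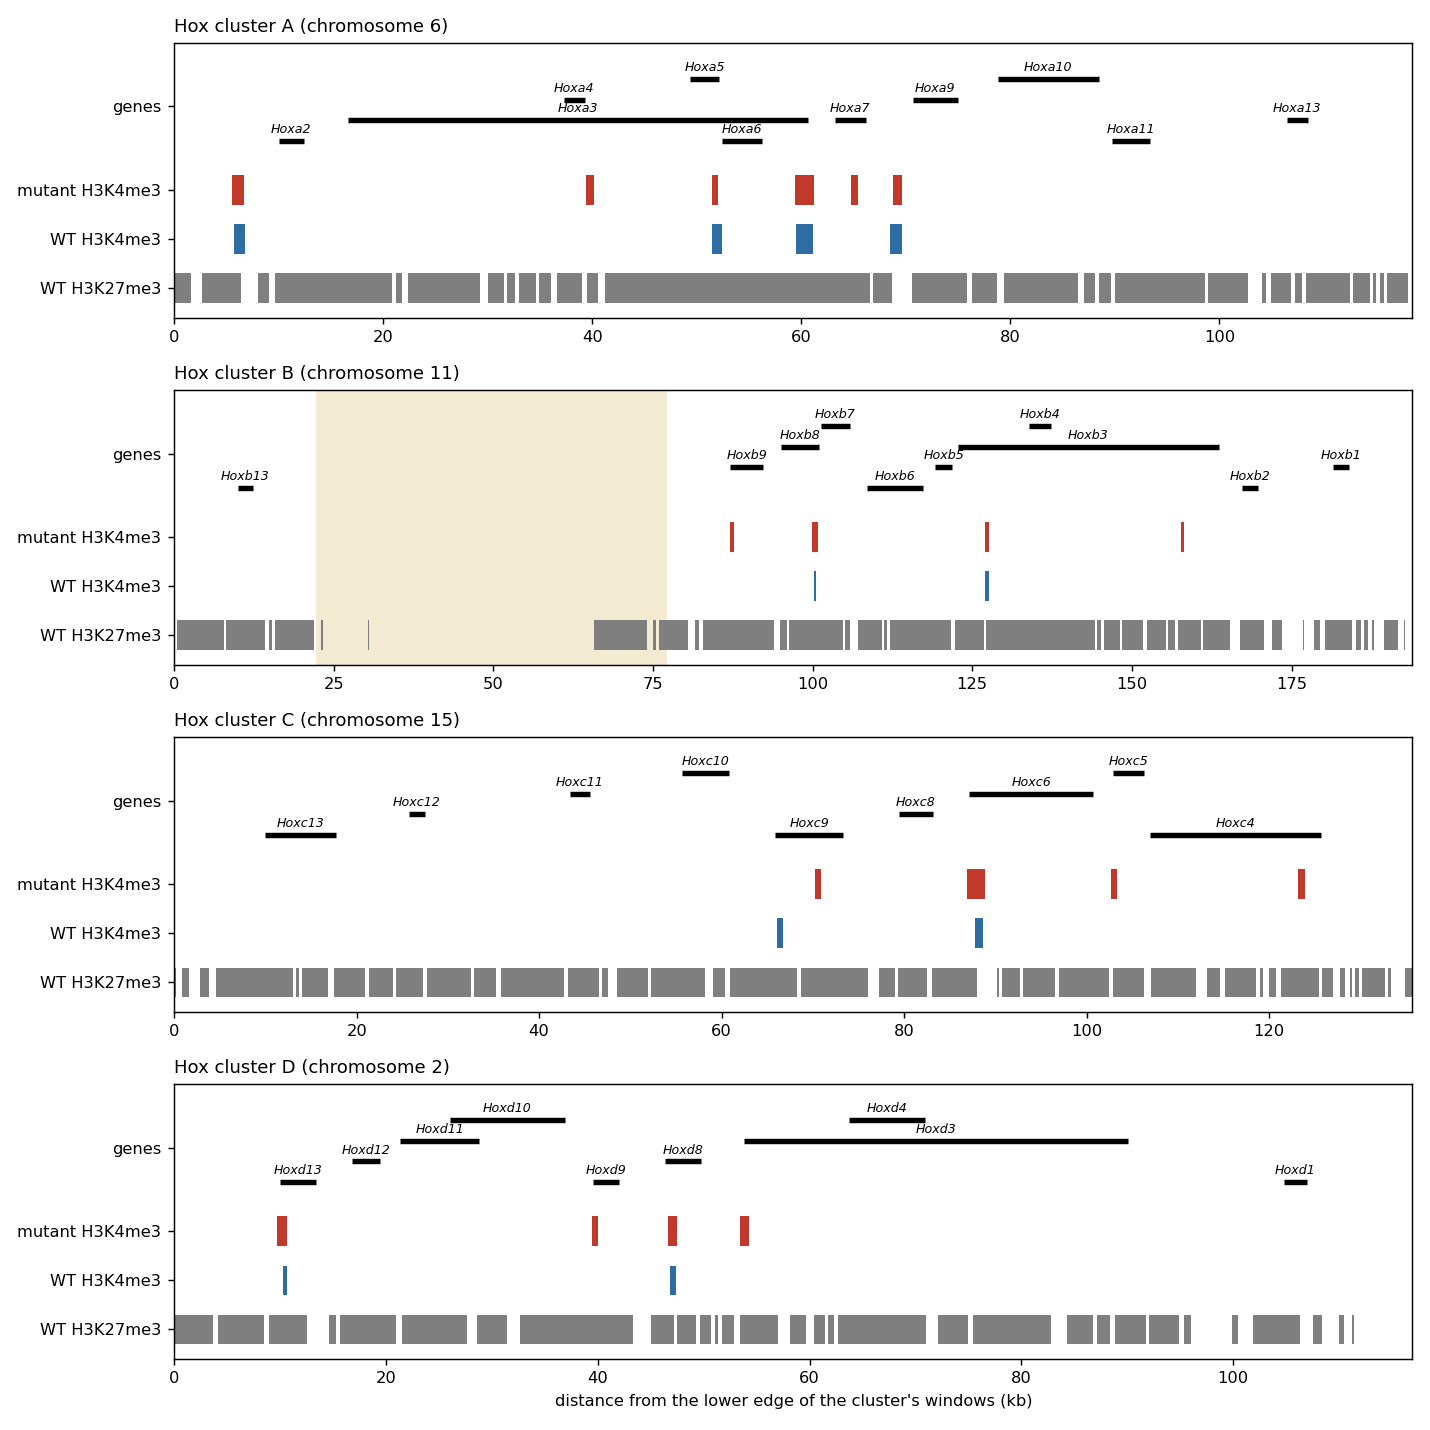
Maps of the 4 clusters drawn to scale: Hox genes (black), H3K4me3 peaks of the mutant line (red) and of the WT line (blue), and WT H3K27me3 peaks (grey), against distance in kb from the lower edge of the windows. The shaded stretch of cluster B lies outside the windows. The red marks outnumber the blue, 18 against 10, and most of them sit on a nearly continuous grey band.

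Enhancer and activity marks were absent from the clusters in the lists of both lines. No H3K27ac peak and no H3K4me1 peak of either line fell in any Hox window, so 0 of 38 members had H3K27ac in the mutant line, where 42.5% of all protein-coding genes had it, and 0 of 38 in the WT line, where 52.3% did. For H3K4me1 the count was again 0 of 38 in the mutant line, with a background of 14.6%, and 0 of 38 in the WT line, with a background of 26.3%. The 80 other protein-coding genes with at least 50% of the window under WT H3K27me3 had lower shares than all genes: 12.5% in the mutant and 8.75% in the WT line for H3K27ac, and 8.75% in the mutant and 2.5% in the WT line for H3K4me1. No region of the mutant H3K27me3 list fell in a Hox window either, against 2.86% of all genes and 1.25% of the 80. The nearest H3K27ac peak to the H3K27me3 block of cluster A lay 226.502 kb above it in the mutant line and 44.864 kb above it in the WT line. For cluster D the nearest H3K27ac peak was 60.848 kb away in the mutant line and 60.711 kb in the WT line. Absence from a list means that no peak passed the authors' threshold, and the depth behind that threshold is unknown.

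H3K4me3 was present in all 4 clusters, sparse and weak, and covered more bases in the mutant line. It covered 15.668 kb in 18 peaks in the mutant line and 8.318 kb in 10 peaks in the WT line, a difference of 7.35 kb. Cluster A had 5.768 kb in the mutant and 4.783 kb in the WT line, cluster B 2.539 and 0.973 kb, cluster C 4.061 and 1.546 kb, and cluster D 3.3 and 1.016 kb, mutant before WT. The difference was 2.515 kb in cluster C, 2.284 kb in D, 1.566 kb in B and 0.985 kb in A. Clusters C and D have no stable order: with 20 kb windows D had 2.924 kb and C 2.515 kb, and D was also ahead with lists of equal length and at a score of at least 100. The Hox peaks were 0.1001% of the mutant list (95% Wilson interval 0.06331 to 0.1581%) and 0.04319% of the WT list (0.02346 to 0.07949%). These intervals overlap, but that is no test of a difference between the lines. They cover counting error only and treat clustered peaks of 1 library per line as independent.

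Counted by gene, 26 of 38 members had more H3K4me3 bases in the mutant line, 3 had fewer and 9 had none in either. More bases in the mutant line were found for 23.6% of all protein-coding genes and for 52.5% of the 80 other genes under WT H3K27me3, and fewer for 44.7% of all genes and 32.5% of the 80. The median difference, mutant minus WT, was 0.4875 kb among members (range −0.188 to 1.848 kb), 0 kb over all genes and 0.0215 kb among the 80. Members share peaks, so these are not independent counts. The median level per window was 0.893 kb in the mutant and 0.439 kb in the WT line among members, against 1.524 and 1.401 kb among the 80 and 2.235 and 2.371 kb over all genes. The Hox windows therefore held fewer H3K4me3 bases than a typical gene's window in both lines, but they were also shorter. Their median length was 23.72 kb, against 26.31 kb among the 80 and 37.17 kb over all genes.

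**Figure D3:**
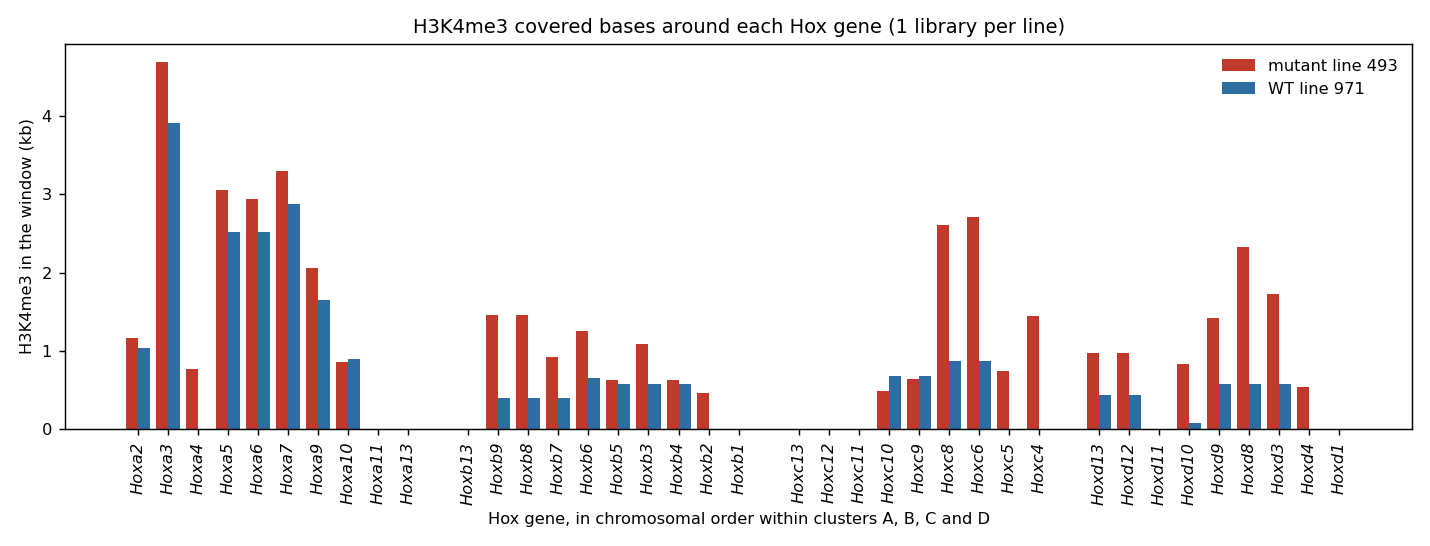
Bases covered by H3K4me3 peaks in each Hox gene's window (kb), mutant line in red and WT line in blue, 1 library each, in chromosomal order within clusters A to D. The red bar is the taller for 26 genes and the blue for Hoxa10, Hoxc10 and Hoxc9, and 9 genes have neither bar; neighbours share peaks.

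The counts varied with position along the cluster. All 15 members of the central paralogue groups (4 to 8) had more H3K4me3 in the mutant line, as did 5 of 7 anterior members (groups 1 to 3) and 6 of 16 posterior ones (groups 9 to 13). With windows of 2.5 kb the counts were 8 of 15 central, 3 of 7 anterior and 3 of 16 posterior members, and 2 central members had less. Hoxb4 and Hoxb5 counted among the 15 by 0.049 kb each, from 1 shared peak in Hoxb3 whose score was 60.21 in the mutant and 79.5 in the WT line. The median was 1.45 kb in the mutant and 0.575 kb in the WT line for central members, 1.087 and 0.575 kb for anterior members, and 0.563 and 0.2365 kb for posterior members. The 9 genes without H3K4me3 in either line were mostly posterior: Hoxa11, Hoxa13, Hoxb13, Hoxc11, Hoxc12, Hoxc13 and Hoxd11, genes of limb, tail and urogenital patterning. The remaining pair, Hoxb1 and Hoxd1, sits at the opposite end. Median window coverage by WT H3K27me3 was 85.45% for both posterior and central members and 74.05% for anterior ones, so central and posterior members had equal medians of H3K27me3 and unequal medians of H3K4me3.

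In cluster A the largest difference belonged to Hoxa3, a gene of pharyngeal arch and thymus development, with 4.688 kb in the mutant and 3.906 kb in the WT line. Its 64.009 kb window is the longest among members and takes in the peaks of its neighbours. At the other end of the scale Hoxa10, known for uterine and limb patterning, had 0.861 kb in the mutant and 0.892 kb in the WT line. In cluster B Hoxb9 and Hoxb8 shared the largest difference, 1.452 kb in the mutant against 0.398 kb in the WT line, and both members at 0 in the 2 lines were the outermost, Hoxb13 and Hoxb1. In cluster C the trunk gene Hoxc6 had 2.716 kb in the mutant and 0.868 kb in the WT line, the largest difference of any member at 1.848 kb. Hoxc10, expressed in the lower trunk and hindlimb, had 0.49 kb in the mutant and 0.678 kb in the WT line, a difference of −0.188 kb. In cluster D Hoxd8 led with 2.325 kb in the mutant and 0.577 kb in the WT line, and Hoxd11 and Hoxd1 had none.

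The peaks of both lines formed 19 separate H3K4me3 sites, of which 9 were found in both lines, 9 in the mutant line alone and 1 in the WT line alone. Of the 9 shared sites 7 were wider in the mutant line and 2 in the WT line. The shared sites had a median score of 155.2 in the mutant and 89.51 in the WT line, and the mutant-alone sites a median of 69.11, with a range of 50.7 to 159.0. The list medians were 1217 and 638.6, so raw scores are not on one scale between the lines. By percentile within its own list, the mutant peak stood lower at Hoxa5, Hoxa3, Hoxb3, Hoxc6, Hoxd8 and between Hoxa7 and Hoxa9. It stood higher at Hoxb8 (17.15 against 1.49), at Hoxd13 (18.99 against 10.35) and, barely, at the site nearest Hoxa2 (35.78 against 35.08). The lists keep nothing under a score of 50, so several sites lay close to the limit of what was listed. All Hox sites were weak for their list: the highest reached percentile 35.78 of the mutant list and 46.67 of the WT list. Their median width was 0.7545 kb in the mutant line and 0.773 kb in the WT line, against list medians of 1.976 kb in the mutant and 1.609 kb in the WT list.

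**Figure D4:**
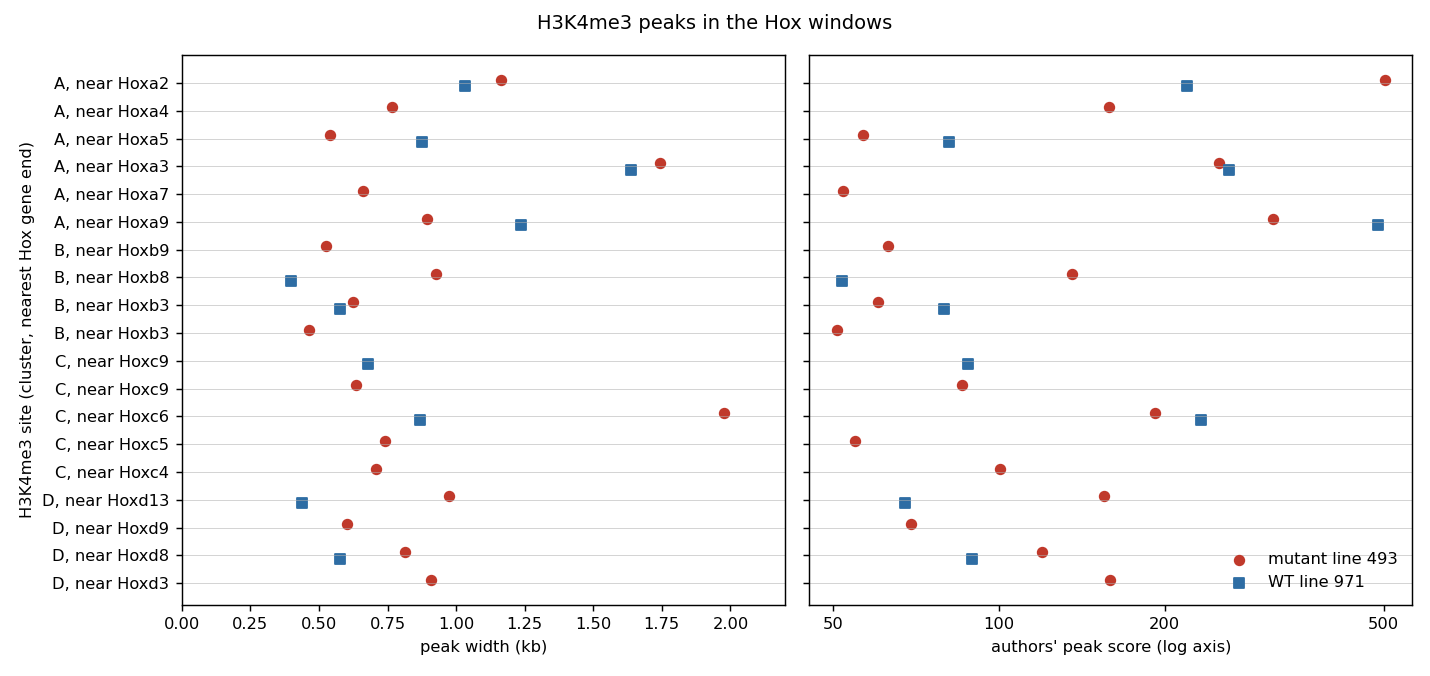
Width (left, kb) and authors' score (right, log axis) of the 19 H3K4me3 sites in chromosomal order within clusters A to D, each named by the nearest Hox gene end; red circles are mutant-line peaks and blue squares WT-line peaks. A circle without a square is a site of the mutant line alone (9 sites), all at scores of up to 159.0. Scores are not on one scale between the lists of the lines.

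Among the shared sites the strongest in the mutant line lay at chr6:52157979-52159214, 3203 bp from Hoxa2 and over the long noncoding RNA gene Hotairm1, which is known from myeloid cells. Its score was 502.7 in the mutant and 219.5 in the WT line, and its width 1.165 kb in the mutant and 1.033 kb in the WT line. Within its own list, however, each score stood near the same percentile, 35.78 in the mutant and 35.08 in the WT list. The strongest WT site, between Hoxa7 and Hoxa9 at chr6:52220853-52222088, went the other way, with a score of 314.79 and 0.892 kb in the mutant against 488.01 and 1.236 kb in the WT line. A site at the upper end of Hoxa3 had close scores, 250.86 over 1.743 kb in the mutant and 262.26 over 1.639 kb in the WT line. The Hoxc6 site, chr15:102997984-102999958, was wider in the mutant line (1.975 kb) than in the WT line (0.868 kb) while its score was lower (192.47 in the mutant, 233.1 in the WT line). Hoxd13, a gene of digit formation, had 155.16 over 0.975 kb in the mutant and 67.41 over 0.439 kb in the WT line. At Hoxb8 the values were 135.49 over 0.925 kb in the mutant and 51.82 over 0.398 kb in the WT line, and at Hoxd8 119.88 over 0.814 kb in the mutant and 89.51 over 0.577 kb in the WT line. The Hoxd8 score stood at percentile 15.19 of the mutant list and 17.65 of the WT list. Hoxa5, a gene of lung and axial development, was narrower and weaker in the mutant line, 56.61 over 0.539 kb against 81.03 over 0.875 kb in the WT line. Width and score therefore did not always move together across shared sites.

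At gene ends, taken as 1 kb around either end, 14 members had H3K4me3 in the mutant line, where 56.7% of all genes and 61.2% of the 80 other covered genes did. In the WT line 9 members had it, against 56.4% of all genes and 55.0% of the 80. The mutant line alone marked 6 members, Hoxa4, Hoxa7, Hoxb9, Hoxc5, Hoxd9 and Hoxd3, against 1.68% of all genes and 7.5% of the 80, and the WT line alone marked Hoxc9, against 1.37% and 1.25%. For Hoxd3, a gene of the upper neck vertebrae, the mutant-line peak at chr2:74711610-74712518 scored 158.98 over 0.909 kb. The peak beside Hoxa4, chr6:52191790-52192557, scored 158.33 and lay 87 bp from that gene of neck vertebra patterning, inside the longer gene model of Hoxa3. The other 4 were weaker: 69.11 at the limb and lumbosacral gene Hoxd9 (chr2:74697655-74698256), 62.82 at the thoracic gene Hoxb9 (chr11:96271446-96271972), 54.8 at Hoxc5 (chr15:103013763-103014503) and 52.03 at Hoxa7 (chr6:52217207-52217867). The last 2 lie within a few units of the list's lower limit of 50.

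Hoxc9, a gene of the thoracic body wall and spinal cord, was the only member marked at an end in the WT line alone, but it carried a peak in each line. The WT peak, chr15:102977167-102977844, scored 87.84 and lay 135 bp inside the lower gene end, and the mutant peak, chr15:102981409-102982044, scored 85.84 and lay 2400 bp from the nearer end. Both were inside WT H3K27me3. The window of Hoxc9 held 0.636 kb in the mutant and 0.678 kb in the WT line, so the lines differed there in position more than in amount. Further sites of the mutant line alone lay within Hoxb3 (score 50.7) and Hoxc4 (score 100.52, 1804 bp from a gene end).

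Of the 13 paralogue groups, 5 (groups 1, 2, 10, 11 and 12) had no gene-end H3K4me3 in either line at any member, and the other 8 held members in more than 1 state. In group 9, Hoxb9 and Hoxd9 were marked at an end in the mutant line alone, Hoxc9 in the WT line alone and Hoxa9 in neither. In group 3, Hoxa3 was marked in both lines, Hoxd3 in the mutant line alone and Hoxb3 in neither. In group 4, Hoxa4 was marked in the mutant line alone and Hoxb4, Hoxc4 and Hoxd4 in neither, although the mutant line had 1.45 kb in the window of Hoxc4 and 0.541 kb in that of Hoxd4 and the WT line 0 kb in both. A mutant-line peak touched the listed promoter of Hoxc4 over 101 bases. That start lies inside the gene model, so it did not count as a gene end.

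H3K4me3 lay mainly inside the WT H3K27me3 peaks. Of the Hox H3K4me3 bases of the mutant line 80.1% were inside them, and of the WT line 71.2%, against 2.781% of all H3K4me3 bases in the mutant list and 1.93% in the WT list. By cluster, mutant before WT, the share was 75.4 and 70.8% in A, 91.6 and 85.4% in B, 71.9 and 58.7% in C, and 89.8 and 78.1% in D. The windows themselves were 80.9% covered, so the share among Hox bases was close to the coverage of the windows in the mutant line and below it in the WT line. Of the 19 sites, with the peaks of both lines merged, 11 were wholly inside H3K27me3, 8 touched a break in it and none lay wholly outside. Taken by line, the mutant peak between Hoxa7 and Hoxa9 (score 314.79) was 0% inside H3K27me3, and the WT peak there (score 488.01) 22.9%. Among the 8 sites at a break is the Hotairm1 site. Its break of 1.679 kb lies beyond the outermost member and so outside the 94 breaks counted above. Among the 19 of those 94 that were 1 kb or longer, 2 held H3K4me3: a 1.91 kb break between Hoxa7 and Hoxa9, with 0.892 kb in the mutant and 0.953 kb in the WT line, and a 2.231 kb break in Hoxc6, with 0.831 kb in the mutant and 0.639 kb in the WT line. The H3K27me3 is that of the WT line, and for the mutant line its level at these sites was not measured on its own.

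The promoter windows show which gene starts the peaks reached. The RefSeq table (GRCm38.p6, the assembly of mm10; 250 bases before to 50 after the start) holds 24 promoters of 22 members. WT H3K27me3 touched 23 of them (95.83%), against 4.437% of all promoters and 90.79% of those of the 80 other covered genes. H3K4me3 of the mutant line touched 5 of the 24, those of Hoxa3, Hoxd13, Hoxd3, Hoxd9 and Hoxc4. H3K4me3 of the WT line touched 2, those of Hoxa3 and Hoxa5. Of all 21255 promoters, H3K4me3 touched 11814 in the mutant and 11765 in the WT line. Of the 76 listed promoters of the 80 other covered genes it touched 37 in the mutant and 31 in the WT line, so Hox promoters were touched less often. Of the 6 members marked at an end in the mutant line alone, 3 have an entry in the table (Hoxa7, Hoxd3 and Hoxd9), and the promoters of Hoxa4, Hoxb9 and Hoxc5 were not analysed here. The mutant peak overlapped the promoters of Hoxd3 and Hoxd9, over 300 and 158 bases in the mutant line and 0 in the WT line. The other 4 were chosen for display after their values were seen: Hoxc4 with 101 bases in the mutant and 0 in the WT line, Hoxd13 with 300 and 0, Hoxa3 with 300 in both, and Hoxa5 with 0 in the mutant and 247 in the WT line. They are written 5′ to 3′ along the gene, with each CG dinucleotide in capitals, since bivalent promoters are typically rich in CpG.
Hoxd3 promoter, chr2:74711743-74712042, plus strand: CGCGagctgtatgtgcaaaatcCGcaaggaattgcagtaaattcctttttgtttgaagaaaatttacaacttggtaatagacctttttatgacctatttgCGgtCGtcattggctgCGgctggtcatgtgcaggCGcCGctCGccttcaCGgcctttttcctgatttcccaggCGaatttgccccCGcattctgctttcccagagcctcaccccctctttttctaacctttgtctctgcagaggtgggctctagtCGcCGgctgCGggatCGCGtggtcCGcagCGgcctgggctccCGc
Hoxd9 promoter, chr2:74697513-74697812, plus strand: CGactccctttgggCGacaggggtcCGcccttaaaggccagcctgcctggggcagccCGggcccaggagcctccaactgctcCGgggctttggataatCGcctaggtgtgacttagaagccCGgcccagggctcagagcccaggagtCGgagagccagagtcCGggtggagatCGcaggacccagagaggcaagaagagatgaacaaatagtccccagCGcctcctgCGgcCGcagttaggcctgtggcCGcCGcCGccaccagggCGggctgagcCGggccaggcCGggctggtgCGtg
Hoxc4 promoter, chr15:103034145-103034444, plus strand: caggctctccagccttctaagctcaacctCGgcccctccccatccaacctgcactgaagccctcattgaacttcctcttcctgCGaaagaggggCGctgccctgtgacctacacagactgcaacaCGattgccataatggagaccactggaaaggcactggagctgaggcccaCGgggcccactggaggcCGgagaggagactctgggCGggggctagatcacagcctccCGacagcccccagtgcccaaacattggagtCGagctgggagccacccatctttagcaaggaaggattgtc
Hoxd13 promoter, chr2:74667975-74668274, plus strand: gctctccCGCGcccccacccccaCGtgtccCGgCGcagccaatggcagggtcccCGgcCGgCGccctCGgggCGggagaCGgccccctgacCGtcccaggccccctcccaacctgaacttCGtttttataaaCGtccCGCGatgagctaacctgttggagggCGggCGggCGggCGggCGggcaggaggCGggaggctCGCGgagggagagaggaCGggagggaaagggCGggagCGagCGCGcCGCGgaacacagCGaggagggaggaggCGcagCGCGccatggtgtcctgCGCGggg
Hoxa3 promoter, chr6:52213018-52213317, minus strand: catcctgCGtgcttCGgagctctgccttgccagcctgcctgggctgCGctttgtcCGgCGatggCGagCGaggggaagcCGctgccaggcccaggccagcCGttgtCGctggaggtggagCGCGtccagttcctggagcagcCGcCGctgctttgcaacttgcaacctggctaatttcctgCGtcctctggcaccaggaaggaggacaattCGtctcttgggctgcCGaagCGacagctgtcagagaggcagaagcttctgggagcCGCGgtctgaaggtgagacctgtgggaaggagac
Hoxa5 promoter, chr6:52204538-52204837, minus strand: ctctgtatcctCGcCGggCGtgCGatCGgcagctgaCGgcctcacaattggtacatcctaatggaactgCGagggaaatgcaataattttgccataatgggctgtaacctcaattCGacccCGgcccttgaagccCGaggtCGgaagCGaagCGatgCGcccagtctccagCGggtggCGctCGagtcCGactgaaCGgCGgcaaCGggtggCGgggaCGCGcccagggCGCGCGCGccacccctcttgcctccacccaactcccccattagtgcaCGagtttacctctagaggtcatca

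These promoters hold 20 (Hoxd3), 20 (Hoxd9), 9 (Hoxc4), 37 (Hoxd13), 20 (Hoxa3) and 29 (Hoxa5) CpG dinucleotides. The median was 20 over the 5 promoters with mutant-line H3K4me3 and 13 over the 19 without, and it was 13 over all 21255 promoters. The ranges overlapped widely, since the richest Hox promoter, that of Hoxa13 with 45, had no H3K4me3 in either line and that of Hoxc4, with 9, had it in the mutant line. A PBX-HOX motif (TGATTNAT, either strand) was found in 2 of the 24 promoters (8.333%, against 2.752% of all promoters). The homeodomain core TAATTA, either strand, was in 2 (8.333%, against 4.535%) and the TATA box TATAAA, either strand, in 4 (16.67%, against 12.6%). None of the 5 promoters with mutant-line H3K4me3 held TGATTNAT or TAATTA.

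**Figure D5:**
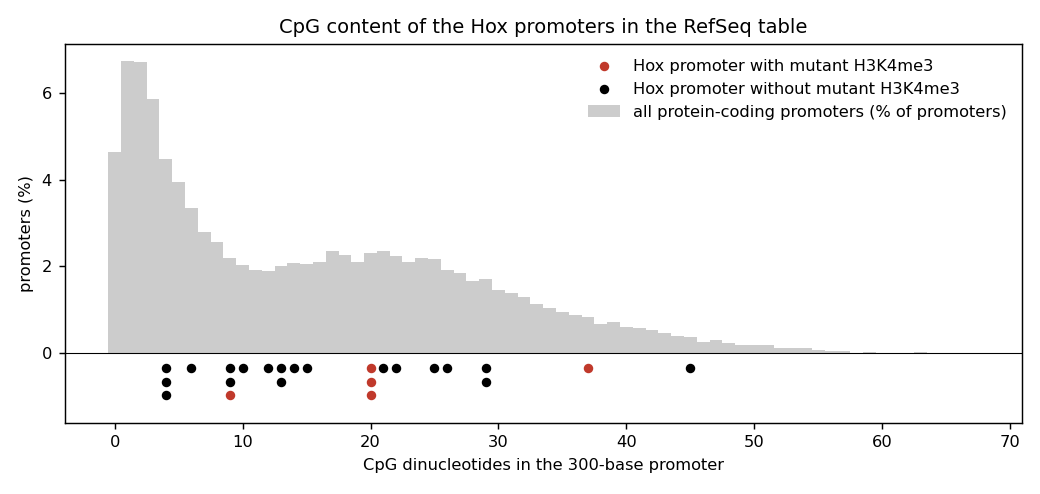
CpG dinucleotides per 300-base promoter: grey bars give the percent of all protein-coding promoters, red dots the 5 Hox promoters with mutant-line H3K4me3 and black dots the 19 without. Red dots lie at 9, 20 and 37 CpGs, inside the range of the black ones (4 to 45).

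The clusters also carry microRNAs, small RNAs that lower their target transcripts, and those of the miR-196 and miR-10 families were looked up here. On the gene models used, Mir10a lies inside Hoxb3 and Mir10b inside Hoxd3 and Hoxd4, and the miR-196 hairpins lie between members. Their mature sequences from RefSeq (GRCm38.p6) are given with the seed, bases 2 to 8, in capitals, because the seed groups them: miR-196a-5p with miR-196b-5p, and miR-10a-5p with miR-10b-5p.
miR-196a-5p: uAGGUAGUuucauguuguuggg
miR-196b-5p: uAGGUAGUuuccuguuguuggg
miR-10a-5p: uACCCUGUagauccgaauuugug
miR-10b-5p: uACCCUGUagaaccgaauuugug
miR-615-3p: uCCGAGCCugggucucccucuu
The hairpins Mir196b, Mir10a, Mir196a-2 and Mir10b were 100% inside WT H3K27me3, and Mir196a-1, near Hoxb9, was 0% inside it. No H3K4me3 of either line lay within 1 kb of these 5 hairpins. Mir615, in Hoxc5, was the exception: its miR-615-3p stretch had 535 bp of mutant-line H3K4me3 within 1 kb and 0 bp of WT-line H3K4me3, from the same Hoxc5 peak as above.

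The partners and regulators of the Hox genes were read from 3 short lists. All 8 Hox cofactors described here (Pbx2, Pbx3, Pbx4, Meis1, Meis2, Meis3, Pknox1 and Pknox2) carried gene-end H3K4me3 in both lines, and none had 50% of its window under WT H3K27me3. H3K27ac lay in the windows of 5 of 8 in the mutant and 8 of 8 in the WT line. More H3K4me3 in the mutant line was found for 3 of these 8 and less for 5. Pbx3 had 5.027 kb in the mutant and 10.049 kb in the WT line, and Meis2 had 11.92 kb in the mutant and 10.614 kb in the WT line. Of 7 genes that act upstream of the clusters (Cdx1, Cdx2, Cdx4, Egr2, Rara, Rarb and Rarg), 1, Rarg, had gene-end H3K4me3 in both lines, 0 had more H3K4me3 in the mutant line and 4 had less. Cdx2, a caudal-type activator of posterior Hox genes, was covered by WT H3K27me3 over 71.86% of its window and had no H3K4me3 in either line. Of 10 neighbours of the clusters 9 were found, and Prac1 was not used. Gene-end H3K4me3 was present in 5 of them in the mutant line and 6 in the WT line, and 4 had more and 5 less in the mutant line. Evx1, beside Hoxa13, had 0 kb in the mutant and 1.115 kb in the WT line, and Evx2, beside Hoxd13, had 1.615 kb in the mutant and 0.439 kb in the WT line. The Evx2 window takes in the Hoxd13 site, which gives all of the WT value and 0.975 kb of the mutant value, leaving 0.64 kb in the mutant line. Both genes were under WT H3K27me3, over 67.9 and 72.5% of their windows.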

How the data were processed

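Peaks of 4 marks in lines 493 and 971 were taken as deposited. The submitters' processing notes name mm10, FastQC, MultiQC and MACS2; the aligner is not given in the sources used here, nor are versions or depth. H3K4me3 lists carry the authors' score (minimum 50), per the file headers and values. The other lists carry the authors' fold enrichment (a ratio) and −log10 p-values. All were called per library, per the names of the lists, against the line's input, except the mutant H3K27me3 list, called against the WT H3K27me3 library.

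Windows (10 kb; gene ends 1 kb), coverage and breaks were computed with Python 3.11.15, pandas 2.3.3 and numpy 2.4.6 on RefSeq GRCm38.p6 gene models; an overlap of 1 bp sufficed. The coverage code was tested on simulated peaks. Figures used matplotlib 3.10.9. The genes described singly were those marked in 1 line alone and those with the largest and smallest H3K4me3 difference per cluster; others, such as Hoxa5 and Hoxd13, were added after their values were seen. Members and lists were chosen with earlier results of these data known. No test was possible. Alternatives were windows of 2.5 and 20 kb, the top 50% of each list, lists of equal length, a 50% overlap and a score minimum of 100. Some genes of the cofactor and regulator lists are not reported here.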

Additional observations from a re-analysis of the deposited data

How the results depend on the processing

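The H3K4me3 difference in the Hox windows, 7.35 kb, was 7.218 kb with 2.5 kb windows and 7.99 kb with 20 kb windows. It was 10.89 kb with lists of equal length, a setting that cut the WT list alone and so could only raise the difference. At a score of at least 100, a limit chosen after seeing the data, it was 6.099 kb. That limit was 1 raw value for lists with median scores of 1217 (mutant) and 638.6 (WT). The direction was thus the same in these settings, but they are no independent check of it. With the more significant 50% of each list the difference was 0 kb, in each cluster too, because no Hox H3K4me3 peak of either line is that strong. The inside share then has no value. By cluster, the difference in A was 0.853 kb (2.5 kb), 1.86 kb (equal length) and 0.66 kb (score of at least 100). In B it was 2.539 and 0.925 kb, and in C 3.193 and 1.816 kb, for equal length and for the score limit. In D it was 2.924 kb (20 kb), 3.3 kb (equal length) and 2.698 kb (score limit). The 26 members more covered in the mutant line became 14 at 2.5 kb, 29 at 20 kb, 28 at equal length, 19 at the score limit and 0 in the top 50%. WT H3K27me3 covered 85.19% at 2.5 kb, 74.46% at 20 kb and 79.72% with the top 50%. The mutant share inside H3K27me3 was 81.11% at 2.5 kb, 80.92% at 20 kb, 94.31% with an overlap of 50% and 76.2% at the score limit.

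Gene-end states depended most on the settings. Members marked in the mutant line alone numbered 6, of which 5 were shared at a distance of 2.5 kb (6 members) and at an overlap of 50% (6 members), and 2, Hoxd3 and Hoxa4, at the score limit (6 members). The count was 1 (Hoxb2) at 20 kb, 0 in the top 50% and 12 at equal length, which include all 6. Equal length cut the WT list alone, so it could only raise this count. Hoxc9 in the WT line alone was lost (0 members) at 2.5 kb, at 20 kb, in the top 50%, at equal length and at the score limit. H3K27ac and H3K4me1 stayed at 0 peaks in every setting run. No paired analysis was possible because each line has 1 library per mark. Depth is unknown, so a weak site listed in 1 line alone is not shown to be absent from the other.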
